A study of Mus musculus with 9 samples.

Results

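Atm, Atr, Mre11a and Rad18 sense DNA double-strand breaks or signal from them, and were followed here in the juvenile testis without Spo11, the enzyme that makes the breaks of meiosis. They were chosen by name: probes whose only gene symbol in the platform annotation is 1 of these 4. That gave 4 genes of 7118 and 5 probes of 16128, with 2 probes for Atm, which were averaged, and 1 for each of the others. Whole-testis total RNA of Spo11-/- and wild-type mice was hybridised to 2-colour spotted arrays, on which 1 knockout and 1 wild-type sample carrying different dyes bind the same spots. At 15 days 4 arrays were made, all with knockout RNA in Cy3. At 12 days 5 arrays were made, with knockout RNA in Cy5 on replicates 1, 4 and 5 and in Cy3 on replicates 2 and 3. The design text speaks of 4 experiments with different mouse pairs of one litter, while 5 arrays carry the 12-day label, so some arrays may share RNA, and p-values measure the spread between arrays, which may be technical. The sources used here do not name the strain, how the Spo11 allele was made or any pooling of mice.

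Atm and Atr are large kinases that start the response to broken DNA. Atm is activated at break ends by the complex of Mre11a, Rad50 and Nbn, whose nuclease subunit is Mre11a. Atr acts on single-stranded DNA, and in spermatocytes it gathers on unsynapsed chromosome axes and on the sex chromosomes. In meiosis Atm also holds down the number of breaks that Spo11 makes. Rad18 is a ubiquitin ligase that, with its partner Ube2a or Ube2b, marks the sliding clamp Pcna so that replication can pass damage, and it is needed to keep spermatogonial stem cells.

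Each value is a log ratio of the dyes, centred by the authors on the median of its array and read here as log2, so that 1 is a 2-fold difference. No source used here states which way the ratios point, and the direction was not tested. Arrays at 15 days correlated with those 12-day arrays that also had knockout RNA in Cy3 at r = -0.38 to -0.11 across probes (8 pairs, all below 0), whereas the 15-day arrays correlated with each other at 0.38 to 0.60. The 15-day results below keep the deposited sign. A value above 0 means a gene lower in the knockout under a Cy5 over Cy3 reading, which is the order of the channels in the labels. It means a gene higher in the knockout if each ratio was formed the other way, as knockout over wild type. Arrays carried values for 72.1% to 91.3% of the probes. Spo11 has no probe by the annotation, and the knockout itself went unchecked, and tissue markers could be checked for ratios only, not for levels, so no marker could show whether the tissue is testis.

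In the RefSeq gene table (GRCm38.p6) Atm, Atr and Mre11a lie on chromosome 9 and Rad18 on chromosome 6. On the array the genes of chromosome 9, these members included, had a median log2 ratio of -0.01 at 15 days over 403 genes tested. In the test described below, 3.47% of them passed above 0 and 8.44% below, against 4.04% and 7.20% of all genes. For Atr and Mre11a, the member farthest above 0 and the one nearest to 0 at 15 days, the table of promoter windows lists a start outside the gene's own span. Where the transcripts measured here begin was not tested, and the 100 bases before each listed start are shown. Both lie on the plus strand, at chr9:95857497-95857596 for Atr and at chr9:14784554-14784653 for Mre11a, and capitals mark motifs found on either strand.
Atr: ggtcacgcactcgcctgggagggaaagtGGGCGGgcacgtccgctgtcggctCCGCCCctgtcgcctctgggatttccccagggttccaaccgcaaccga
Mre11a: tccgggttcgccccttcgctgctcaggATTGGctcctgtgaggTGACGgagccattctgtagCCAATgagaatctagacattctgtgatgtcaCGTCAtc
The Atr window held 2 matches to GGGCGG, the GC box, and none to the other motifs searched. The Mre11a window held 2 matches to CCAAT, the CCAAT box, and 2 to TGACG, the first bases of the cyclic AMP response element, but no GC box. Of 32851 windows of this length, the CCAAT box was in 18.9%, the TGACG motif in 10.5% and the GC box in 24.7%, so each motif is common. The motifs do not overlap in these windows. A match describes the letters only.

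At 15 days, the comparison asks which transcripts differ when the breaks of meiosis are not made, and none of the 4 genes passed the test (limma with Benjamini-Hochberg adjustment over all features, adjusted p under 0.05). That is 0 of 4 against a background of 12.4% of 12198 features and 11.2% of 6958 genes. The 2 kinases lay above 0, Mre11a lay near 0, and Rad18 below 0, each by 1.03-fold to 1.19-fold. With knockout RNA in Cy3 on all 4 arrays, genotype and dye cannot be told apart at this age. Total RNA of a whole testis was used, so fewer cells of a type and less RNA per cell cannot be told apart in any of these values.

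**Figure D1:**
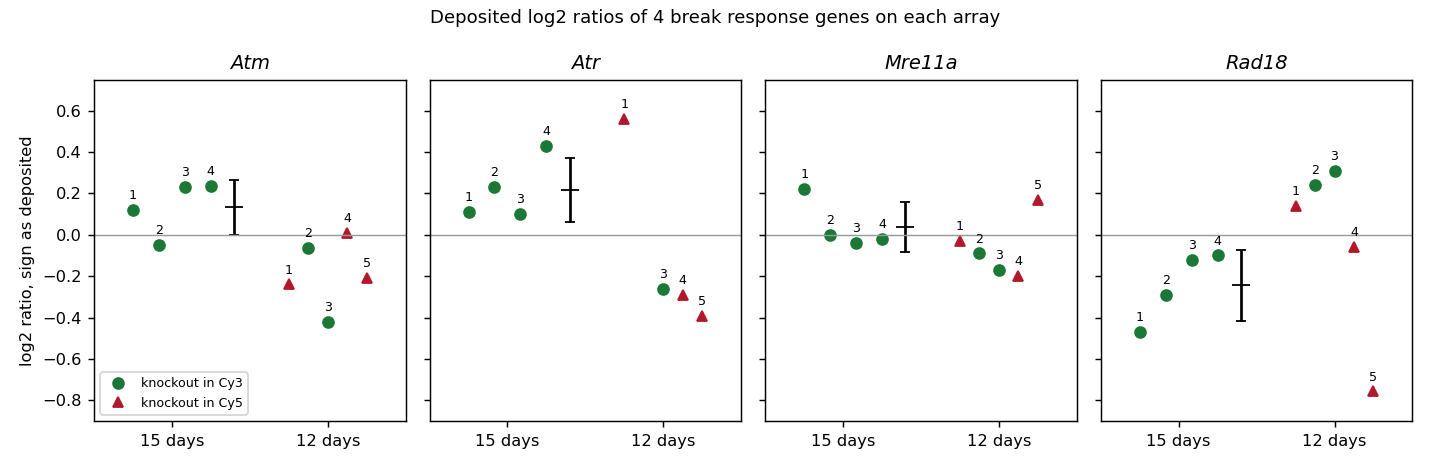
Deposited log2 ratio (y axis) of Atm, Atr, Mre11a and Rad18 on each of 9 arrays, 15 days on the left and 12 days on the right of each panel, with circles for knockout in Cy3, triangles for knockout in Cy5, numbers for replicates, and a bar for the mean ± SD at 15 days. Atr lies above 0 and Rad18 below 0 on all 4 arrays at 15 days, while at 12 days each gene has values on both sides of 0.

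Atr had log2 ratios of 0.11, 0.23, 0.10 and 0.43 on 15-day replicates 1 to 4. All 4 arrays lay above 0, with replicate 4 the highest. The mean was 0.22 ± 0.15 (SD, n = 4), a 1.16-fold difference with a 95% interval of -0.02 to 0.45 and a limma adjusted p = 0.19. Atm, averaged over 2 probes, had 0.12, -0.05, 0.23 and 0.235. Replicate 2 alone was below 0, and both probes gave nearly the same mean, 0.135 and 0.1325. The mean was 0.13 ± 0.13 (SD, n = 4), with an interval of -0.10 to 0.36 and a limma adjusted p = 0.41.

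Mre11a had 0.22, 0.00, -0.04 and -0.02 on the same arrays, so that replicate 1 alone stood away from 0. The mean was 0.04 ± 0.12 (SD, n = 4), with an interval of -0.19 to 0.27 and a limma adjusted p = 0.82, and it was -0.02 without replicate 1. Its partner Rad50 likewise lay near 0, at 0.03 (SE 0.10). Nbn, the remaining subunit, was not analysed here.

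Rad18 had -0.47, -0.29, -0.12 and -0.10. All 4 arrays were below 0, replicates 1 and 2 farther than replicates 3 and 4. The mean was -0.245 ± 0.17 (SD, n = 4), a 1.19-fold difference with an interval of -0.49 to -0.0043. Its unadjusted p was 0.047, which 31.1% of all features reached, and the limma adjusted p = 0.15. After subtraction of the local median of 100 probes on each side Rad18 lay at -0.064, with a limma adjusted p = 0.60. Adjacent probes in the deposited order correlated at r = 0.23 to 0.48 on the 15-day arrays. All 9 arrays were also fitted jointly with a dye term, which assumes that the dye effect measured at 12 days holds at 15 days. In that joint fit Atm lay at 0.33, Atr at 0.37, Mre11a at 0.115 and Rad18 at -0.27, with limma adjusted p from 0.15 to 0.60. With the 15-day sign turned in that fit they lay at -0.061, 0.067, -0.035 and -0.22, with limma adjusted p from 0.61 to 0.93. An exact two-sided sign-flip permutation test gave p = 0.125 for both Atr and Rad18, the smallest that 4 arrays allow, and p = 0.25 for Atm and p = 1 for Mre11a.

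The break response was read from a list of 83 genes in 7 groups, the 4 genes among them, of which 50 had a single-gene probe and a test at 15 days. Of these 50, 9 passed, 2 above 0 and 7 below. That is 18% of the list, against 11.2% of all genes, 4.04% above 0 and 7.20% below. The list was chosen with earlier results of these data known, so its share is not an independent readout. The list median was -0.05, against -0.02 for all genes. Without the 4 genes, 9 of 46 passed (19.6%), with a median of -0.07. The count rests on all 4 arrays: it was 2 without replicate 1, 0 without replicate 2, 1 without replicate 3 and 5 without replicate 4, while the features passing overall fell from 1515 to between 357 and 1021. Usp1 and Exo1 passed without replicate 1, Wdr48 without replicate 3, and Trim28, Rad1, Usp1, Mad2l2 and Pcna without replicate 4. The thresholds of the study were a false discovery rate of 0.01 and a 1.5-fold change, which it applied to another statistic. At these none of the 50 passed, against 242 of all 12198 features.

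**Figure D2:**
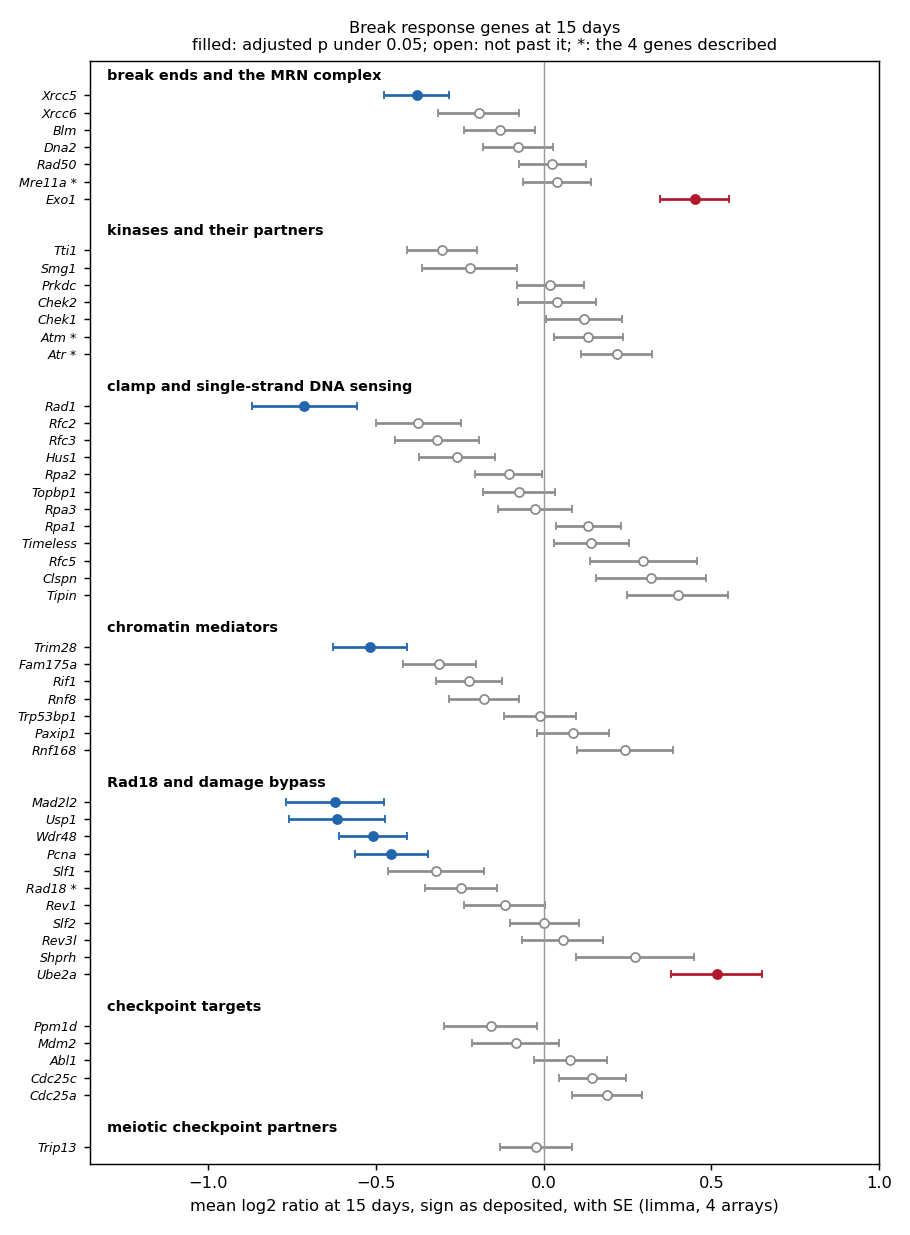
Mean log2 ratio at 15 days, sign as deposited, with the limma SE (x axis) for 50 genes of the break response in 7 groups, with filled red for genes past the threshold above 0, filled blue for those below 0, open grey for the rest, and asterisks for Atm, Atr, Mre11a and Rad18. Of the 9 filled points, 5 lie among the Rad18 and damage bypass genes and none among the kinases and their partners.

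Of the 11 genes of damage bypass, Rad18 included, 5 passed at 15 days, 4 below 0 and 1 above. That is 45.5% of a small group, against 11.2% of all genes, 7.20% below 0 and 4.04% above. The group was chosen with earlier results of these data known, and its share was not tested against that of all genes. Usp1, the protease that removes ubiquitin from Pcna, had -0.345, -1.085, -0.755 and -0.275 on replicates 1 to 4, with a mean of -0.615 (SE 0.14, limma adjusted p = 0.027), while its 2 probes differed in size, at -0.855 and -0.375. Wdr48, the cofactor that activates Usp1, had -0.55, -0.60, -0.33 and -0.55, with a mean of -0.51 (SE 0.10, adjusted p = 0.017 by limma). Both lay below 0 on every array, Usp1 most on replicates 2 and 3.

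Pcna, the clamp itself, had -0.51, -0.48, -0.63 and -0.19, with a mean of -0.45 (SE 0.11, limma adjusted p = 0.030). Mad2l2, a subunit of the bypass polymerase zeta, had -0.62, -1.15, -0.50 and -0.21, with a mean of -0.62 (SE 0.15, limma adjusted p = 0.028). Replicate 4 was the nearest to 0 for both. Rev3l, the catalytic subunit of the same polymerase, lay at 0.06, and Rev1, which binds it, at -0.12, neither past the threshold.

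Ube2a, the conjugating enzyme that pairs with Rad18, went the other way, with 0.84, 0.22, 0.22 and 0.78 on replicates 1 to 4. Its mean was 0.52 (SE 0.14, limma adjusted p = 0.039), from 1 of its 2 probes, since the other had no value at 15 days. Ube2a lies on the X chromosome, where 14% of 207 genes tested passed above 0, against 3.69% of the 6663 genes not on it. As deposited, Rad18 lay on the side of Usp1, Wdr48 and Pcna but short of the threshold. After local subtraction Rad18 lay at -0.064, whereas Usp1 lay at -0.67, Wdr48 at -0.50 and Pcna at -0.30. Slf1 and Slf2, which bind Rad18, lay at -0.32 and 0, and Shprh, a second ligase for Pcna, at 0.27, none past the threshold. Without replicate 2 none of the 11 passed. Joint fits of all 9 arrays could test 9 of the 11, leaving out Wdr48 and Shprh for too few values at 12 days. Of these 9, 4 passed without a dye term, 2 with it, and 0 when the 15-day signs were also turned. Over all 9851 features, 882, 763 and 17 passed in the same fits. Pcna and Mad2l2 were the 2 that passed with a dye term, whereas Usp1 (adjusted p = 0.12 by limma) and Ube2a (0.092) missed the threshold there.

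**Figure D3:**
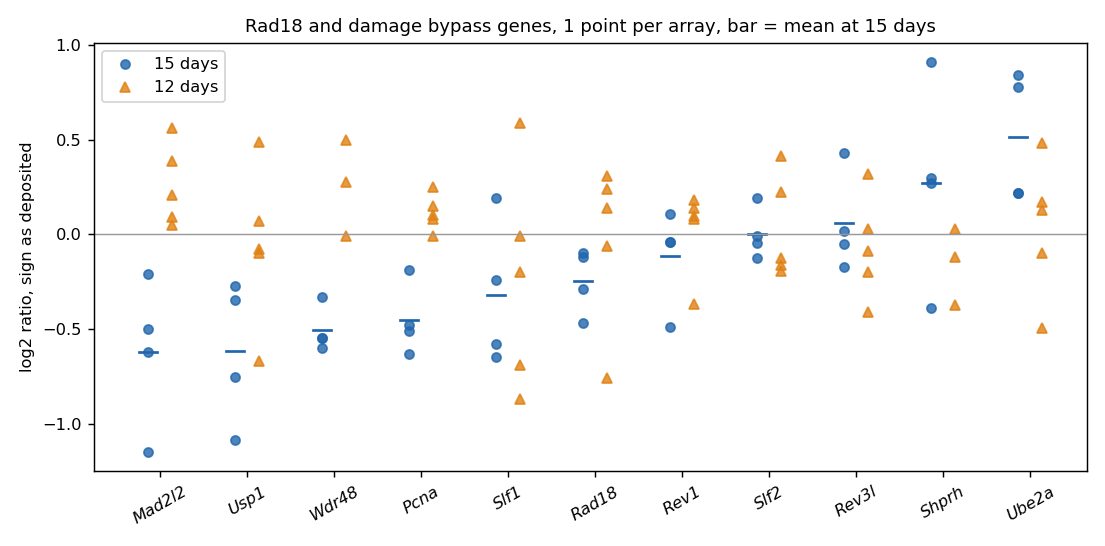
Deposited log2 ratio (y axis) of the 11 Rad18 and damage bypass genes on each array, blue circles for 15 days with a bar at their mean and orange triangles for 12 days. Mad2l2, Usp1, Wdr48, Pcna and Rad18 lie below 0 and Ube2a above 0 on all 4 arrays at 15 days, while at 12 days only Mad2l2 has 1 sign on every array, above 0 as deposited.

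Among the kinases and their partners 0 of 7 passed at 15 days, a group too small to be set apart from the 11.2% of all genes. Chek1 and Chek2, the checkpoint kinases that Atr and Atm switch on, lay at 0.12 (SE 0.11) and 0.04 (SE 0.12). Prkdc, the kinase of end joining, lay at 0.02, Smg1, a kinase of the same family as Atm, at -0.22, and Tti1, which helps such kinases fold, at -0.30 with a limma adjusted p = 0.086.

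Rad1, a subunit of the ring-shaped clamp that helps activate Atr, was the 1 of 12 sensing genes that passed. It had -0.71, -1.31, -0.57 and -0.26 on the 4 arrays, with a mean of -0.71 (SE 0.16, limma adjusted p = 0.023), while its partner Hus1 lay at -0.26 and the Atr activator Topbp1 at -0.07. Of 7 genes of break ends, Exo1, a nuclease that resects them, passed above 0 at 0.45 (SE 0.10, limma adjusted p = 0.026), and Xrcc5, the larger Ku subunit of end joining, below 0 at -0.38 (SE 0.098, limma adjusted p = 0.037). Xrcc6, the other Ku subunit, lay at -0.19. Of 7 chromatin genes Trim28, a corepressor that Atm phosphorylates, passed at -0.52 (SE 0.11, limma adjusted p = 0.021), while Trp53bp1, an adaptor at breaks, lay at -0.01 and Rnf8, a ubiquitin ligase there, at -0.18. None of 5 checkpoint targets passed, nor did Trip13, the only measured gene of the meiotic checkpoint group. The shares passing were 8.33% of the sensing genes, 28.6% of those of break ends and 14.3% of the chromatin genes. Over all genes the share was 11.2%, and these small groups were not tested against it.

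Markers of cell types moved at the same age. Their lists were chosen with earlier results of these data known, so the counts are not an independent readout of cell types. Over all genes, 4.04% passed above 0 and 7.20% below. Of 6 pachytene spermatocyte markers 4 passed below 0 and none above, with list medians of -1.26 to -0.74 on the 4 arrays. Read as Cy5 over Cy3, these would be higher in the knockout at 15 days. Under that reading the 4 tested at 12 days had a median of -0.27, with none past the threshold. Read as knockout over wild type, they would be lower in the knockout at 15 days. Which reading holds was not tested. Of 9 spermatogonial markers 3 passed above 0 and none below, with medians of 0.19 to 0.405, and of 8 leptotene and zygotene markers 2 passed below 0, with medians of -0.485 to 0.085. None of 8 Sertoli cell markers passed, with medians of -0.07 to 0.17. Of 6 Leydig cell markers 1 passed above 0 (medians -0.0050 to 0.38), of 6 peritubular markers 1 above and 1 below (0.02 to 0.185), and of 4 endothelial and blood markers 1 above (0.145 to 0.32). The single macrophage marker measured passed below 0 (-0.90 to -0.22). The single spermatid marker, which had no value on replicate 1, passed above (0.29 to 1.23). Their part in the values of Rad18, Usp1, Wdr48, Pcna, Mad2l2, Rad1 and Ube2a was not tested.

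At 12 days, when fewer spermatocytes have reached pachytene, none of the 4 genes passed, and neither did any of 10075 features (0.00%, limma, with 2.67% at an unadjusted p under 0.05). Estimates are log2 of knockout against wild type, with the ratios read as Cy5 over Cy3. Rad18 had the farthest estimate of the 4, at -0.25 (SE 0.14, interval -0.59 to 0.09, limma adjusted p = 1.0), and at -0.098 after local subtraction. Atr lay at 0.11 (SE 0.21), Mre11a at 0.055 (SE 0.09) and Atm at 0.05 (SE 0.09).

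As deposited, Rad18 had 0.14, -0.06 and -0.757 with knockout in Cy5 (replicates 1, 4 and 5) and 0.24 and 0.31 with knockout in Cy3 (replicates 2 and 3). Replicate 5 stood lowest, and the estimate was -0.12 without it. On replicate 5 adjacent probes correlated at r = 0.65, against 0.11 to 0.20 on the other 12-day arrays. Whether this bears on Rad18 was not tested. Atr had 0.56, -0.29 and -0.394 with knockout in Cy5 and -0.26 on replicate 3, with no value on replicate 2. Replicate 1 was the only array above 0, and without it the estimate turned to -0.04.

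Atm had -0.24, 0.01 and -0.2095 with knockout in Cy5 and -0.065 and -0.42 with knockout in Cy3, so that 4 of 5 arrays lay below 0 whichever dye the knockout carried. Its probes differed more than at 15 days: the first had -0.58, 0.03 and -0.505 in the Cy5 orientation, the second 0.10, -0.01 and 0.086. Mre11a had -0.03, -0.20 and 0.17 in the Cy5 orientation and -0.09 and -0.17 in the Cy3 orientation. None of the 4 genes kept its Cy5 and Cy3 orientations on opposite sides of 0.

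Of the 45 listed genes tested at 12 days none passed, and the list median was 0.0010, against -0.01 for all genes. Unadjusted p-values under 0.05 numbered 2 of 45. The smallest were those of Tipin, which protects replication forks with Timeless (-0.30, SE 0.09), Ube2a (0.28, SE 0.10), Prkdc (0.26), Chek2 (-0.22), Fam175a, a scaffold of a Brca1 complex (-0.18), and Paxip1, also an adaptor at breaks (0.23), each with a limma adjusted p = 1.0. Rad50, Chek1 and Topbp1 lay at -0.01, -0.01 and -0.14. Of the marker lists, the 4 pachytene markers tested had a median of -0.27 at this age, and the 9 spermatogonial markers one of -0.04.

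Whether the knockout effect differed between 15 and 12 days was tested by fitting both ages together, with the dye effect in common. The array title numbers of the ages do not overlap, so age cannot be told apart from any difference between these array sets. None of the 4 genes passed under either reading of the 15-day arrays, against 2.34% of 9851 features under the Cy5 over Cy3 reading and 0.00% with the 15-day sign turned (6.60% at an unadjusted p under 0.05). By its design this contrast compares the 15-day mean with replicates 2 and 3 of 12 days, whose knockout RNA was also in Cy3, and for Atr with replicate 3 alone.

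**Figure D4:**
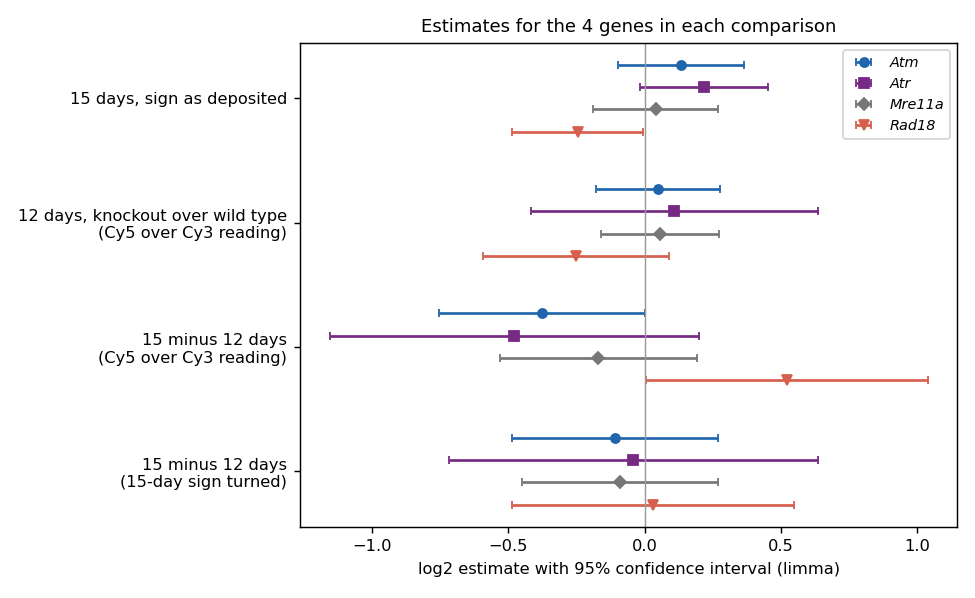
Estimates (points) with 95% confidence intervals (bars) on the log2 scale for Atm, Atr, Mre11a and Rad18 at 15 days, at 12 days, and for 15 minus 12 days with the 15-day arrays read either way. The intervals include 0 except for Rad18 at 15 days and in the Cy5 over Cy3 reading of the age difference, where they end close to it, and no adjusted p is under 0.05.

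Under the Cy5 over Cy3 reading the knockout over wild-type ratio of Rad18 was higher at 15 days by 0.52 (SE 0.24, interval 0.0031 to 1.04, unadjusted p = 0.049, limma adjusted p = 0.24), and by 0.31 after local subtraction. That of Atm was lower, at -0.38 (SE 0.17, interval -0.75 to 0.0011, limma adjusted p = 0.25), as was that of Atr, at -0.48 (SE 0.30, limma adjusted p = 0.40). Mre11a lay at -0.17 (SE 0.16). Among arrays with knockout in Cy3 the deposited values of 15 and 12 days did not overlap for any of the 4 genes, as for 38.6% of all features, and the nearest values of Atm were -0.05 and -0.065. With the sign turned the differences shrank to 0.03 for Rad18, -0.11 for Atm, -0.04 for Atr and -0.09 for Mre11a, with limma adjusted p from 0.95 to 1.0 and intervals that reached from -0.72 to 0.63 for Atr and from -0.49 to 0.55 for Rad18.

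Of the 45 listed genes Xrcc5 alone passed under the Cy5 over Cy3 reading, a share near that of all features, higher at 15 days by 0.79 (SE 0.15, limma adjusted p = 0.030). As deposited it lay between -0.43 and -0.29 on the 4 arrays at 15 days and between 0.16 and 0.47 on all 5 arrays at 12 days, whichever dye the knockout carried. Pachytene marker medians likewise lay at -1.26 to -0.74 on the 15-day arrays and at -0.06 to 1.16 on the 12-day arrays, and their part in the result was not tested. With the sign turned its difference was 0.03, and without a dye term it was 0.36 (limma adjusted p = 0.30). With that term and under the Cy5 over Cy3 reading it fell short of the threshold without any 1 of 15-day replicates 1, 2 and 3 or 12-day replicates 2, 3 and 4, with adjusted p from 0.055 to 0.24. The next smallest p-values were those of Exo1 (-0.675), Trim28 (0.675), Mad2l2 (0.92), Ube2a (-0.81) and Fam175a (0.645), with limma adjusted p from 0.062 to 0.087. With the sign turned they were those of Tipin (0.71), Slf1 (-0.765), Rfc3 (-0.44), Trim28 (-0.36), Pcna (-0.33) and Chek1 (-0.34), with limma adjusted p from 0.74 to 0.81.

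The 4 genes did not move as 1 group over the arrays. As a description over 9 arrays, which share scanning and centring and split by age, Mre11a and Rad18 ran opposite to each other (r = -0.82), and Atm and Atr were loosely alike (r = 0.35 over 8 arrays). The other pairs lay between -0.27 and 0.27. The genes whose deposited ratios were most like each were Brox, Cetn2 and Tmem19 for Atm (r = 0.96, 0.94 and 0.92 among 5379 genes), Ralgapa1, R3hdm4 and Zfp36l1 for Atr (r = 0.96, 0.96 and 0.93 over 8 arrays and 5568 genes), Pelp1, Helb and Senp3 for Mre11a (r = 0.93, 0.93 and 0.93), and A4galt, Tmx2 and Plrg1 for Rad18 (r = 0.96, 0.94 and 0.94). Each r is among the highest of all genes compared over few arrays, and no chance level was computed for it. On 12-day replicate 5 A4galt, Tmx2 and Plrg1 lay at -0.654, -0.589 and -0.765, and Rad18 at -0.757. None of these 12 genes is on the break response list.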

How the data were processed

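The deposited values of the 9 arrays were log ratios of both dyes, taken here to be log2. The authors used a GenePix scanner, flagged spots by default settings in GenePix 3.0 and centred each array on its median, per the design text. No source used here gives the log base, the background correction or the ratio direction. Signal over background is therefore unknown, and precision is limited by how many arrays there are. The platform annotation, which is old, named 1 gene for 9604 probes, several for 213 and none for 6311. Symbols were matched by Entrez ID to RefSeq (GRCm38.p6) for 98.9% of the first. Promoter windows are from the same build.

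Probes of a gene were averaged. The test was limma 3.58.1 in R 4.3.3 (two-sided, Benjamini-Hochberg over all features): at 15 days the mean against 0 (at least 3 values), at 12 days a knockout and a dye coefficient (at least 4 values, both orientations), and both ages in 1 model. The authors' SAM statistic was not run. The tests were checked on simulated arrays. Alternatives covered scaling, the dye term, the reading of the signs, filters, thresholds and each array left out.

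The members and lists were chosen with earlier results of these data known. Named were the 4 members, listed genes past the threshold or up to the 6 of smallest p, set direct partners with a probe, and the 3 genes most correlated with each member; other listed genes were named beside them after their values were seen. Replicates are numbered in order of deposit.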

Additional observations from a re-analysis of the deposited data

Results flagged for a closer look

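Mre11a at 15 days had 1 array far from the other 3, replicate 1 at 0.22 against -0.04 to 0.00. Of 24 sets of at least 4 values examined this way, from 13 genes, this was the only one, and chance gives about 1 in 20. Rad1 and Wdr48 had too few values at 12 days and were examined at 15 days only.

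Xrcc5 passed the test of the difference between ages only under the Cy5 over Cy3 reading with a dye term, at 0.79 (limma adjusted p = 0.030). It lay at 0.03 with the 15-day sign turned, and at 0.36 without a dye term (limma adjusted p = 0.30). As deposited it lay above 0 on all 5 arrays at 12 days, whichever dye the knockout carried.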

How the results depend on the processing

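No alternative brought Atm, Atr, Mre11a or Rad18 past the threshold at either age or for the difference between ages, the smallest limma adjusted p being 0.069, for the age difference of Rad18. Signs were less stable. Mre11a at 15 days turned to -0.024 after subtraction of a local median, which also brought Rad18 to -0.064 at 15 days, -0.098 at 12 days and 0.31 between ages. In a joint fit with a dye term and the 15-day sign turned Atm lay at -0.061 and Mre11a at -0.035. At 12 days, without turning by the dyes, Atm lay at -0.18, Atr at -0.096 and Mre11a at -0.064, and with the range of array title numbers as a block Atr lay at -0.041. Read as knockout over wild type throughout, the age difference was 0.32 for Atm, 0.31 for Atr, 0.10 for Mre11a, -0.22 for Rad18 and -0.72 for Xrcc5. Without a dye term it was -0.14 for Atm, -0.25 for Atr, -0.08 for Mre11a, 0.49 for Rad18 and 0.36 for Xrcc5. With 1 array left out, values at 15 days ranged from 0.10 to 0.195 for Atm, 0.15 to 0.26 for Atr, -0.02 to 0.067 for Mre11a and -0.29 to -0.17 for Rad18. At 12 days they ranged from -0.041 to 0.14, -0.041 to 0.20, 0.0075 to 0.10 and -0.34 to -0.12, and between ages from -0.55 to -0.20, -0.52 to -0.41, -0.21 to -0.11 and 0.445 to 0.57, in the same order.

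At 15 days 1515 of 12198 features passed, 357 to 1021 with 1 array left out, 242 at an adjusted p under 0.01 and 1.5-fold. Joint fits of 9851 features gave 882 without a dye term, 763 with it, and 17 with it and the sign turned. Listed genes passing were 9, then 0 to 5, 0 under the stricter threshold and 0 with the sign turned. Bypass genes were 5 of 11, then 0 to 3, 0 under the stricter threshold, and of the 9 that joint fits could test 4 without a dye term, 2 with it, and 0 with the sign turned. Exo1 and Pcna missed the threshold after local subtraction (limma adjusted p = 0.087 and 0.075). Between ages 231 features and 1 listed gene passed, 10 to 465 and 0 to 4 with 1 array left out, 535 and 6 with equal spread, 796 and 10 after quantile normalization, 495 and 2 after local subtraction, 4 and 0 under the stricter threshold, 0 and 0 with the sign turned, and 864 and 6 read as knockout over wild type throughout. Listed genes were 3 when each probe was tested alone. The cause of these differences was not tested. For Atr neither the 12-day value nor the age difference could be estimated without 12-day replicate 3. Each ratio already sets a knockout against a wild type on 1 array. Beyond this, no paired analysis was possible because the labels give no numbers that link arrays of different ages.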
